A study of Mus musculus with 22 samples.

Results

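The genes described here are 40 named genes of the interferon response and of the MHC class I antigen presentation route, followed through the nucleus accumbens of mice whose gut microbiome was depleted or intact and who received morphine or saline. They form a list of names with reads in the deposited table, drawn up with earlier results of these data known, and no difference between groups was part of the rule. All 40 stood among the 24061 genes of the table. A total of 39 passed the filter on low counts and were tested together with all 14564 genes that passed it. The remaining gene, Ifi44, had between 0 and 8 reads per library.

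The tissue came from conventionally raised male C57BL/6J mice aged 7 to 9 weeks, kept in a specific pathogen-free colony. Antibiotics that the gut does not absorb (labelled Abx) depleted the microbiome, and mice labelled H2O kept a normal microbiome. Morphine was given at 20 mg/kg per day for 7 days. There were 5 libraries from antibiotic mice with morphine, 5 from water mice with morphine, 6 from antibiotic mice with saline and 6 from water mice with saline. The libraries are of bulk tissue, so fewer cells of a type and less RNA per cell cannot be told apart, and the labels do not say whether a library stands for 1 animal.

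Type I interferons bind a receptor made of Ifnar1 and Ifnar2, which activates kinases that phosphorylate signal transducers such as Stat2. Stat2 joins Irf9 in a complex that binds the interferon-stimulated response element (ISRE) before antiviral genes, while the GAS element is used chiefly after interferon gamma. MHC class I molecules carry peptides to the cell surface: the proteasome with its inducible subunits Psmb8 and Psmb9 cuts them, the Tap1 and Tap2 transporter moves them into the endoplasmic reticulum, and tapasin (Tapbp) helps load them onto a heavy chain paired with B2m. In the brain, microglia, endothelial cells and other cells carry a low tonic level of these genes, and neurons use some MHC class I molecules at synapses.

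The promoters of 4 of the genes whose level changed are shown because they carry the core of the ISRE, printed in capitals (the letters GAAA, then any 2 bases, then GAAA again, or the reverse complement). They come from RefSeq on build GRCm38.p6, run 5′ to 3′ on the gene's strand, and cover 250 bases before to 50 bases after the start site. The build behind the deposited counts is not given in the sources used here.
Gbp3, chr3:142559794-142560093, plus strand: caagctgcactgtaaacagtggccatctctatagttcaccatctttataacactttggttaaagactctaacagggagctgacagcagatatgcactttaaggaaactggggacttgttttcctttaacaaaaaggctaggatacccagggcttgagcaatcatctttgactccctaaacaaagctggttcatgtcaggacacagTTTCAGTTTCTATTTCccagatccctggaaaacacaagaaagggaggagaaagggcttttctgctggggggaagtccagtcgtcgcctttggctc
Gbp2, chr3:142620413-142620712, plus strand: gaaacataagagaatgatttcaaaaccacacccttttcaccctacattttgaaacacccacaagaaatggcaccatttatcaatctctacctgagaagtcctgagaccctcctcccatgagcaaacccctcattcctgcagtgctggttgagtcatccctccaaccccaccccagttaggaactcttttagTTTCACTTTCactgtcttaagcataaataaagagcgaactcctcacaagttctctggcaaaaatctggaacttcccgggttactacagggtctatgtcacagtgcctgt
Isg15, chr4:156200769-156201068, minus strand: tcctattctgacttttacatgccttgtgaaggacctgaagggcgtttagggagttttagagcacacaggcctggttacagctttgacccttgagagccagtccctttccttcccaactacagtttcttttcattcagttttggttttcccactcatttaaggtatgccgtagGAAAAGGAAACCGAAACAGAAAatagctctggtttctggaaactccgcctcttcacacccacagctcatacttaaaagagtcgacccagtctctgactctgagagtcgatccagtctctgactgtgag
H2-T23, chr17:36032652-36032951, minus strand: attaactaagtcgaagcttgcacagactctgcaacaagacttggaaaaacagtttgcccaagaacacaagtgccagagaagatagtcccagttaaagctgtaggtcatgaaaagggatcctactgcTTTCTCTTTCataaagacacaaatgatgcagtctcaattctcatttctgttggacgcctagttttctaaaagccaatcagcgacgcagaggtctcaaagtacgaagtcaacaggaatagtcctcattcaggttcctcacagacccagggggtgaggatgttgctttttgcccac
Gbp3 holds 2 overlapping copies of the core, whose first bases lie at positions -45 and -39 from the start site, and Gbp2 holds 1 at -59. Isg15, the ubiquitin-like modifier, holds 3 overlapping copies at -78, -72 and -66. H2-T23, a non-classical MHC class I heavy chain, holds 1 farther out, at -124. RefSeq gives a second start site for Gbp3, whose window (chr3:142560106-142560405) holds 0 copies of the core. The window with the most copies is shown for each gene. Tapbp and Psmb8, which also changed, held 0 copies of the core, and Ifi27 had no promoter entry. The core was also found in genes of the list that passed in no comparison, such as Stat2, Ifit1, Ifit3, Irgm1 and B2m. Of the 4 genes shown, H2-T23 rose and the others fell. Whether the motif has a part in the changes was not tested.

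A promoter entry was found for 34 of the 40 genes, and a gene with several windows was counted once, if any of them held the motif. The longer ISRE, which is the core followed by C, searched on both strands, occurred in 11 of these 34 genes (32.4%) and in 0.944% of the 27025 genes with an entry. The core alone occurred in 15 of 34 (44.1%) and in 3.99% of genes. TTCNNNGAA, a form of the GAS element that reads alike on both strands, occurred in 10 of 34 (29.4%) and in 9.55% of genes. The core and the longer motif overlap wherever the longer one is found. A match describes these letters in this window and is not a measured binding site.

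Reads assigned to genes ran from 9357299 to 15330947 per library. Genes of the striatum stood at high levels: Penk, the enkephalin precursor, averaged 1197 to 1442 CPM (counts per read total, scaled by TMM to compare libraries) over the 4 groups, while the receptors for dopamine averaged 238 to 263 CPM for Drd1, which the table lists as Drd1a, and 115 to 158 CPM for Drd2. Levels of Gapdh averaged 1162 to 1264 CPM, and the other reference genes Actb and Hprt 1038 to 1166 and 94.1 to 96.5 CPM. Of the 4 reference genes, Malat1 included, 1 was lower with morphine in water mice (edgeR, adjusted p under 0.05). That is 25%, against 6.58% of all tested genes, and 0 passed in the other pairs. Malat1, a nuclear RNA, ran from 164 to 2462 CPM, and antibiotic saline library 6 and antibiotic morphine library 4 (1007 CPM) held the highest values. All 10 morphine libraries had a positive slope of log2 CPM on log2 transcript length, at 0.0257 to 0.0545, and so had 1 of the 12 saline libraries, antibiotic saline library 6 (0.0483).

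Most of the genes were expressed at low levels. Per kilobase of the longest transcript, their median was 1.90 CPM per kb against 8.77 CPM per kb over all tested genes with a length, and 31 of the 39 tested genes lay below that median. B2m, the invariant light chain of MHC class I, and Adar, which edits adenosines in double-stranded RNA, stood highest at 53.7 and 53.4 CPM per kb, at percentiles 90.4 and 90.3 of tested genes. Ifi27, a small membrane protein induced by interferon, followed at 21.9 CPM per kb. The classical heavy chain H2-K1 had 15.0, the receptor subunit Ifnar1 14.2 and tapasin (Tapbp) 13.9 CPM per kb. Isg15 had 2.15, Gbp3 1.55 and Gbp2 0.998 CPM per kb. The lowest tested gene was Nlrc5, the transactivator of MHC class I genes, at 0.118 CPM per kb. A mean count under 20 reads per library was found for 6 tested genes, Isg15 among them at 18.7 reads, and counting error is large for these.

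**Figure D1:**
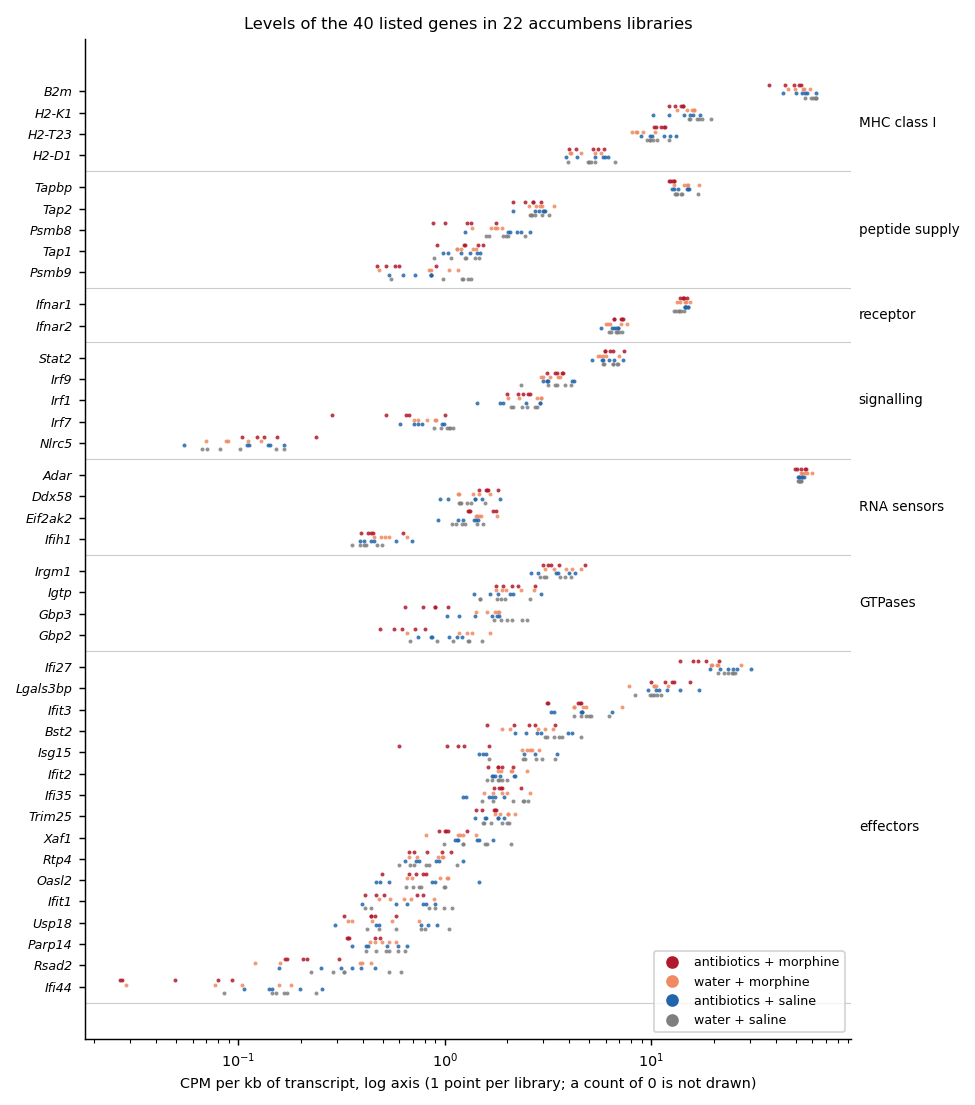
Level of each of the 40 genes in each of the 22 libraries, in CPM per kb of the longest transcript on a log axis, grouped by role, with 1 point per library and colours for the 4 groups. B2m and Adar stand near 53 CPM per kb and Nlrc5 near 0.118, and within most genes the 4 groups overlap.

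Libraries of a group differed least for Ifnar1 and Adar. Ifnar1 had a median coefficient of variation of 3.25% over the 4 groups and Adar 3.71%, against 36.5% for Rsad2, the enzyme viperin, and 34.5% for Usp18, which removes Isg15 from proteins. Other genes at high levels varied more than Ifnar1 and Adar. The coefficient ran from 4.52% (water saline) to 13.6% (antibiotic morphine) for B2m and from 7.04% to 16.2% in the same groups for Ifi27. A mean of the 39 genes' log2 CPM, centred on each gene's mean over all libraries, lay between -0.154 and -0.111 in antibiotic morphine libraries, between -0.016 and 0.049 in water morphine libraries, between -0.216 and 0.125 in antibiotic saline libraries and between -0.068 and 0.145 in water saline libraries. The antibiotic morphine libraries were the closest together and the antibiotic saline libraries the widest apart. Antibiotic saline library 6, which also held the highest Malat1, had the lowest value of its group in 16 of the 39 genes.

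The first comparison set antibiotics against water among mice given morphine. Of the 39 genes 5 fell and 1 rose, 15.4% in all, against 18.0% of all tested genes, of which 9.58% were lower and 8.42% higher (edgeR quasi-likelihood F-test, Benjamini-Hochberg adjusted p under 0.05 over all 14564 genes). The share of the list that changed was thus no higher than that of all genes. The genes that fell were the GTPases Gbp3 and Gbp2, the modifier Isg15, the membrane protein Ifi27 and tapasin, and H2-T23 rose. Lower estimates were more common than higher ones: 30 genes lay below 0 and 9 above, with a median log2 change of -0.14, against 49.9% below 0 and a median of 0.00083 over all tested genes. No overlap between the groups was found for 2 of the 39 genes (5.13%), against 13.1% of all tested genes.

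Gbp3 and Gbp2 encode guanylate-binding proteins, large GTPases that gather on the vacuoles of intracellular pathogens. Gbp3 had 1.72, 2.40, 2.77, 2.41 and 2.09 CPM in antibiotic morphine libraries and 4.31, 3.81, 4.69, 4.82 and 4.88 CPM in water morphine libraries. Every antibiotic library lay below every water library. The log2 change was -0.98 ± 0.164 (SE), a fold of 0.508 (adjusted p = 0.000232). Gbp2 had 1.81, 2.01, 1.43, 1.55 and 1.23 CPM in antibiotic morphine libraries and 2.94, 3.21, 3.39, 4.15 and 1.66 CPM in water morphine libraries. One water library, number 6, lay among the antibiotic libraries and the other 4 above them all. The log2 change of Gbp2 was -0.94 ± 0.228, a fold of 0.520 (adjusted p = 0.00543). They lie on chromosome 3 with 1 other protein-coding gene between them, and they share few 50-base windows with other genes: 4.79% of Gbp3 and 2.07% of Gbp2.

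The other GTPases of the list belong to the immunity-related family, which acts at the same vacuoles. Irgm1, the most abundant of the 4 GTPase genes, had 10.8, 6.74, 7.13, 8.08 and 7.35 CPM in antibiotic morphine libraries and 9.36, 6.88, 10.4, 7.61 and 8.69 CPM in water morphine libraries. Its log2 difference was -0.10 ± 0.148 and that of Igtp -0.00064 ± 0.173, and neither passed the threshold.

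Isg15, which is attached to other proteins much as ubiquitin is, had 0.452, 0.775, 0.871, 1.24 and 0.937 CPM in antibiotic morphine libraries, from 5, 10, 11, 16 and 13 reads. Water morphine libraries held 2.0, 1.79, 1.89, 1.96 and 2.15 CPM, from 19, 24, 29, 26 and 26 reads. The groups did not overlap. The log2 change was -1.17 ± 0.258, a fold of 0.445 (adjusted p = 0.00275). Ifi27, with the highest level per length of the antiviral genes, had 16.4, 20.7, 13.5, 18.0 and 15.5 CPM in antibiotic morphine libraries and 20.6, 20.2, 26.4, 19.1 and 19.3 CPM in water morphine libraries. Antibiotic library 2 lay within the range of the water libraries and the other 4 below it. The log2 change of Ifi27 was -0.33 ± 0.116, a fold of 0.794 (adjusted p = 0.0485). Leaving out any of 8 of the 10 libraries in turn ended this call, with an adjusted p of up to 0.15.

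The 13 other tested antiviral genes did not pass. Their log2 differences ran from -0.45 ± 0.363 for Rsad2 to 0.30 ± 0.136 for Lgals3bp, a secreted glycoprotein that binds galectin 3, and all but Lgals3bp lay below 0. Lgals3bp, the most abundant of this role by counts, had 29.9, 23.2, 35.8, 27.3 and 29.4 CPM in antibiotic morphine libraries and 23.9, 28.0, 18.1, 24.5 and 24.1 CPM in water morphine libraries. Trim25, the ubiquitin ligase that activates the RNA sensor Ddx58, had the smallest adjusted p of those that did not pass, with a log2 difference of -0.26 ± 0.104 (adjusted p = 0.0819). Among the tetratricopeptide genes, Ifit1, Ifit2 and Ifit3, which bind foreign RNA or each other, had log2 differences of -0.17 ± 0.273, -0.17 ± 0.106 and -0.34 ± 0.175. Ifit3 shares 51.2% of its 50-base windows with Ifit3b, so its reads are uncertain.

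In the MHC class I route, Tapbp had 36.3, 35.6, 37.4, 37.2 and 35.3 CPM in antibiotic morphine libraries and 49.3, 43.4, 37.2, 41.5 and 42.9 CPM in water morphine libraries. Water library 4 lay within the antibiotic range and the other 4 above it. The log2 change was -0.23 ± 0.0745, a fold of 0.851 (adjusted p = 0.032), and it missed the threshold when any of 6 of the 10 libraries was left out, with an adjusted p of up to 0.0946. H2-T23, whose product Qa-1 presents leader peptides of other class I chains to inhibitory receptors of natural killer cells, had 15.5, 17.2, 16.3, 17.0 and 15.2 CPM in antibiotic morphine libraries and 12.5, 15.3, 13.3, 11.9 and 12.3 CPM in water morphine libraries. Water library 3 overlapped the antibiotic libraries and the other 4 lay below them. The log2 change was 0.31 ± 0.0968, a fold of 1.24 (adjusted p = 0.0278), and leaving out any of 6 of the 10 libraries ended the call, with an adjusted p of up to 0.0679. H2-T23 shares 28.8% of its 50-base windows with other genes, so a part of its reads may not be counted or may belong elsewhere.

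The other class I chains did not pass the threshold. B2m had 45.5, 38.3, 42.2, 32.1 and 44.7 CPM in antibiotic morphine libraries and 46.5, 42.8, 46.9, 39.3 and 50.2 CPM in water morphine libraries, a log2 difference of -0.15 ± 0.0902 that did not pass (adjusted p = 0.249). The classical heavy chains H2-K1 and H2-D1 had log2 differences of -0.18 ± 0.103 and 0.07 ± 0.145. Psmb8 and Psmb9, the inducible proteasome subunits, had -0.42 ± 0.194 and -0.49 ± 0.264 (adjusted p = 0.14 and 0.212). The transporter genes Tap1 and Tap2 had 0.02 ± 0.154 and -0.17 ± 0.104. Psmb9, Tap1, Psmb8 and Tap2 follow each other on chromosome 17 with 0 protein-coding genes between neighbours.

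**Figure D2:**
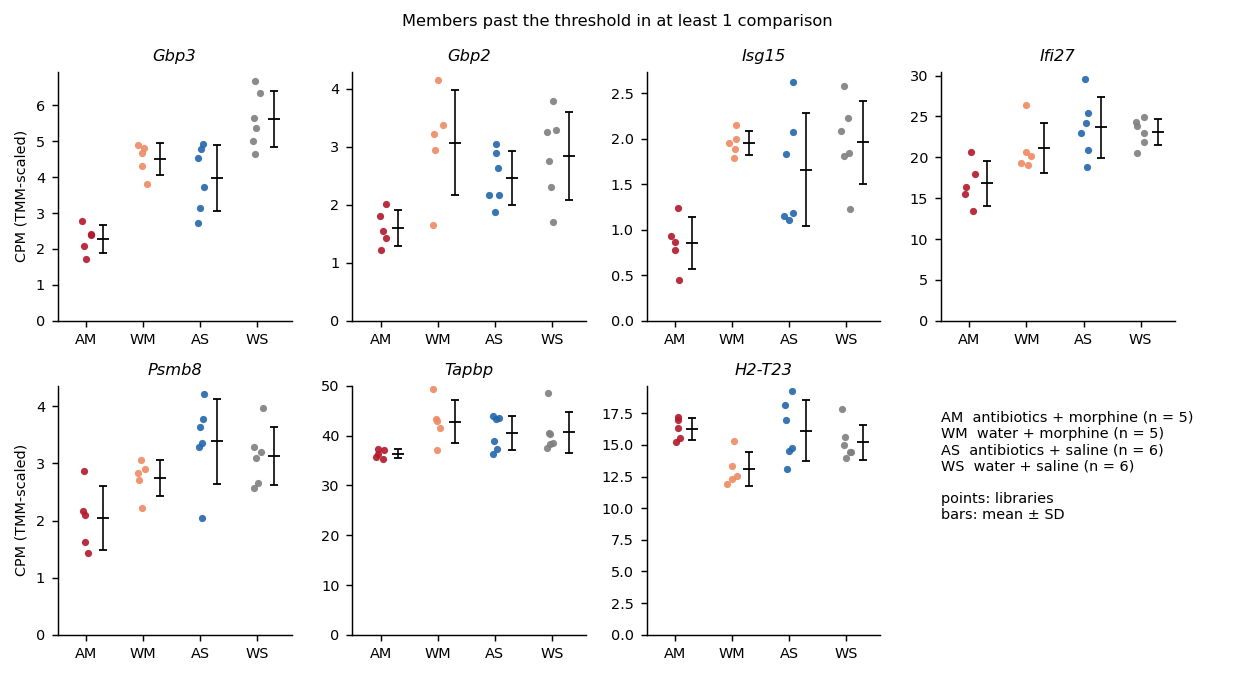
CPM of the 7 genes that passed the threshold in at least 1 comparison, with 1 point per library and bars for the mean ± SD (AM and AS antibiotics with morphine and with saline, WM and WS water with morphine and with saline; n = 5, 6, 5 and 6). The antibiotic morphine libraries of Gbp3 (1.72 to 2.77 CPM) and of Isg15 (0.452 to 1.24 CPM) all lie below the water morphine libraries.

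The second comparison set morphine against saline among antibiotic mice, and shares the antibiotic morphine libraries with the first. Of the 39 genes 4 fell and 0 rose, 10.3%, against 13% of all tested genes, of which 6.62% were lower and 6.43% higher. The genes were Gbp3, Ifi27, Psmb8 and Isg15. A log2 change below 0 was estimated for 26 genes and above 0 for 13, with a median of -0.07, against 50.6% below 0 and a median of -0.0024 over all tested genes. In no gene of the list did the groups separate fully, against 6.30% of all tested genes. With the slope on transcript length as a covariate, which was positive in all 10 morphine and 1 of the 12 saline libraries, none of the 4 calls held (adjusted p of 0.139 for Ifi27, 0.174 for Gbp3, 0.272 for Isg15 and 0.609 for Psmb8). Over all tested genes the calls fell to 138 in that fit, against 1900 without the covariate, so the loss was not particular to the list.

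Gbp3 had 1.72 to 2.77 CPM in the 5 antibiotic morphine libraries, as above, and 2.73, 4.14 and 4.92 CPM as the lowest, median and highest of the 6 antibiotic saline libraries. Only saline library 3, at 2.73 CPM, lay within the morphine range. The log2 change was -0.80 ± 0.162 (adjusted p = 0.00263). Isg15 averaged 0.856 ± 0.285 CPM with morphine (SD, n = 5) and 1.66 ± 0.621 CPM with saline (SD, n = 6), and the saline libraries had a lowest, median and highest of 1.10, 1.51 and 2.63 CPM. Of the 6 saline libraries, 3 lay within the morphine range, and the log2 change was -0.92 ± 0.260 (adjusted p = 0.0223). The Isg15 call was lost without antibiotic saline library 1, antibiotic saline library 3 or antibiotic morphine library 1, with an adjusted p of up to 0.0668.

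Ifi27 averaged 16.8 ± 2.72 CPM in antibiotic morphine libraries and 23.7 ± 3.76 CPM in antibiotic saline libraries, which ran from 18.8 to 29.6 CPM around a median of 23.6. The 2 groups overlapped between 18.8 and 20.7 CPM. The log2 change was -0.49 ± 0.112 (adjusted p = 0.00606). Psmb8, which replaces a constitutive proteasome subunit and favours peptides that fit MHC class I, had 1.63, 2.87, 1.43, 2.17 and 2.09 CPM in antibiotic morphine libraries. In antibiotic saline libraries it had 2.04, 3.50 and 4.22 CPM as the lowest, median and highest. Saline library 6 was the lowest of its group and lay within the morphine range. The log2 change of Psmb8 was -0.72 ± 0.186 (adjusted p = 0.0138). Gbp2 had a log2 difference of -0.62 ± 0.229, which did not pass (adjusted p = 0.0764).

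Antibiotics against water among mice given saline was the third comparison. None of the 39 genes passed, against 1.41% of all tested genes, and at an unadjusted p under 0.05 the edgeR test gave 2 higher and 5 lower genes of 39, against 17.3% of all tested genes. DESeq2 and limma-voom called none of the 39 either. Gbp3 had 2.73, 4.14 and 4.92 CPM as the lowest, median and highest of the antibiotic saline libraries and 4.64, 5.50 and 6.68 CPM in the water saline libraries. Its log2 difference was -0.49 ± 0.142 (adjusted p = 0.0773), and without antibiotic saline library 1 it was -0.56 ± 0.148 (adjusted p = 0.039). Ifnar1 had 56.5, 57.3 and 59.0 CPM as the lowest, median and highest of the antibiotic saline libraries and 50.3, 53.0 and 56.1 CPM in the water saline libraries. All 6 antibiotic libraries lay above all 6 water libraries, and Ifnar1 was the single gene of the list with no overlap here (2.56% of the list, against 1.64% of all tested genes). The log2 difference was 0.12 ± 0.0399 and did not pass (adjusted p = 0.135). B2m averaged 46.0 ± 5.60 CPM in antibiotic saline libraries and 52.0 ± 2.35 CPM in water saline libraries (SD, n = 6 each), a log2 difference of -0.17 ± 0.0825 (adjusted p = 0.278).

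Morphine against saline among water mice was the last pair. None of the 39 genes passed, against 6.58% of all tested genes. At an unadjusted p under 0.05, 1 gene was higher and 4 were lower in the edgeR test, against 22.7% of all tested genes. At an adjusted p under 0.05, DESeq2 and limma-voom called none of the 39 genes. The median log2 change was -0.02, with 18 genes above 0 and 21 below. Isg15 averaged 1.96 ± 0.133 CPM with morphine (SD, n = 5) and 1.96 ± 0.456 CPM with saline (SD, n = 6), a log2 difference of -0.01 ± 0.223. Gbp2 averaged 3.07 ± 0.908 CPM with morphine and 2.85 ± 0.759 CPM with saline. Gbp3 averaged 4.50 ± 0.446 CPM with morphine and 5.61 ± 0.782 CPM with saline, a log2 difference of -0.31 ± 0.145 that did not pass (adjusted p = 0.196). Adar, the most abundant gene of the RNA sensors and RNA-acting enzymes, averaged 330 ± 15.9 CPM with morphine and 309 ± 4.87 CPM with saline, a log2 difference of 0.09 ± 0.0399 (adjusted p = 0.159).

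**Figure D3:**
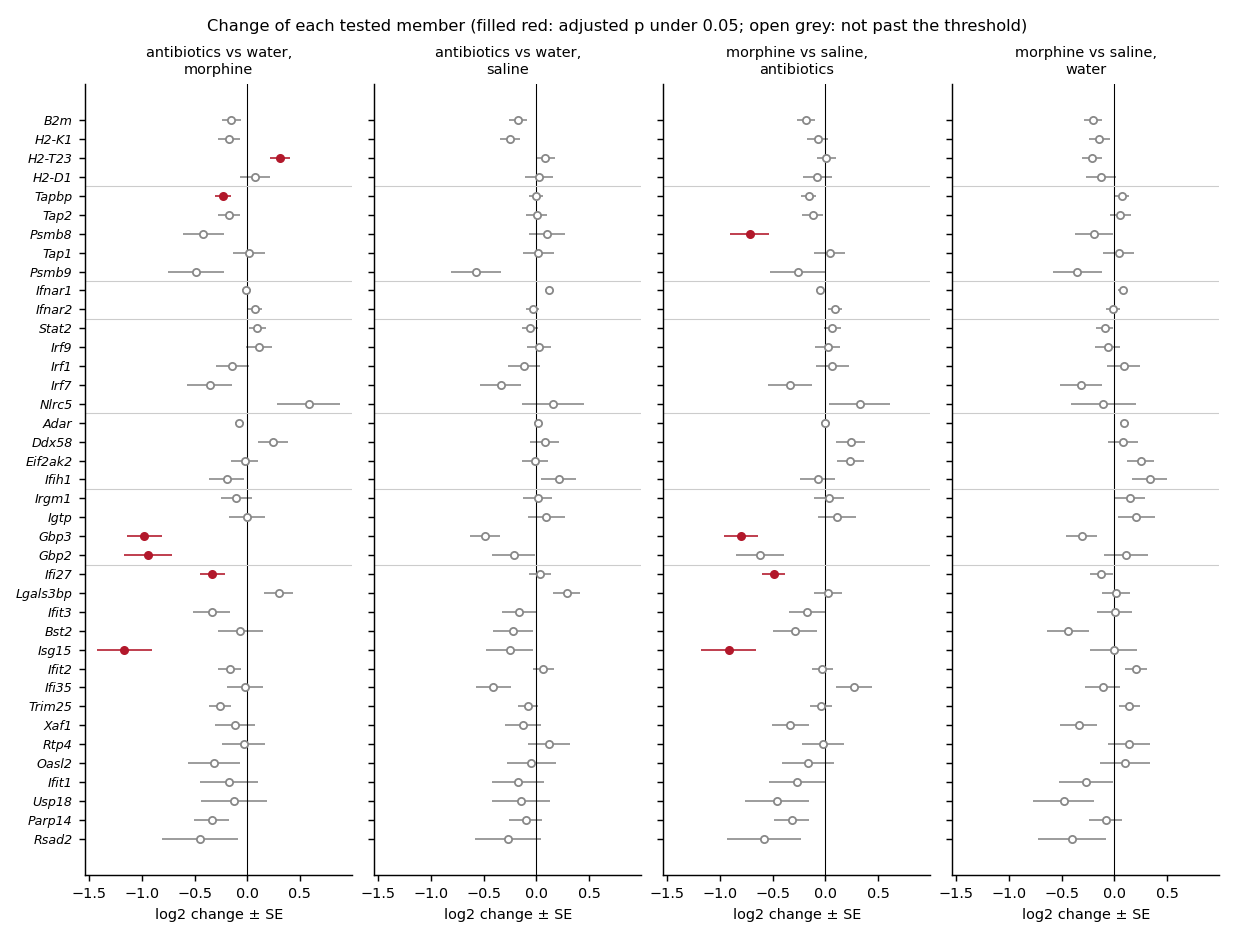
Log2 change with its SE for each of the 39 tested genes in the 4 pairwise comparisons, ordered by role and, within a role, by level; filled red points passed an adjusted p of 0.05. The panel of antibiotics against water under morphine holds 6 filled points, that of morphine against saline under antibiotics 4, and the other panels 0.

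Whether morphine changed the genes by a different amount in antibiotic and water mice was tested as the difference between both morphine changes. None of the 39 genes passed, against 0.467% of all tested genes, and DESeq2 and limma-voom called none. At an unadjusted p under 0.05 in the edgeR test, 6 genes had a lower and 0 a higher morphine change in antibiotic mice, against 12.3% of all tested genes in either direction. The smallest p belonged to Isg15, whose morphine change was lower by 0.91 ± 0.343 on the log2 scale in antibiotic mice than in water mice (difference -0.91, adjusted p = 0.255). Gbp2 had a difference of -0.73 ± 0.308 (adjusted p = 0.324), Ifi27 -0.36 ± 0.157 (adjusted p = 0.334), Tapbp -0.23 ± 0.101 (adjusted p = 0.356) and Gbp3 -0.49 ± 0.217 (adjusted p = 0.359). The calls in antibiotic mice alone are therefore not shown to differ from the changes in water mice.

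Genes of the receptor, of the signal route and of RNA sensing did not pass in any comparison. Ifnar1 averaged 55.7 ± 1.48 CPM in antibiotic morphine libraries, 56.0 ± 3.24 CPM in water morphine libraries, 57.6 ± 1.11 CPM in antibiotic saline libraries and 53.1 ± 2.03 CPM in water saline libraries. Given morphine, single libraries had 56.0, 55.5, 53.7, 55.4 and 57.8 CPM with antibiotics and 51.7, 53.9, 57.3, 60.1 and 57.0 CPM with water, and the groups overlapped. Ifnar2, the signalling partner, had log2 differences between -0.04 and 0.09 over the 4 pairs. Stat2 averaged 28.2 ± 2.49 CPM in antibiotic morphine libraries, 26.4 ± 2.49 CPM in water morphine libraries, 27.0 ± 3.30 CPM in antibiotic saline libraries and 28.2 ± 1.90 CPM in water saline libraries. Given morphine, Stat2 had 26.2, 27.8, 26.1, 32.2 and 28.7 CPM with antibiotics and 24.3, 25.7, 30.5, 24.7 and 26.6 CPM with water, and the groups overlapped. Irf7, the factor that amplifies interferon production, had log2 differences of -0.32 to -0.36 with standard errors of 0.194 to 0.216 over the 4 pairs. Irf1, Irf9 and Nlrc5 had log2 differences from -0.14 to 0.58, the last for Nlrc5 at 0.58 ± 0.298 in antibiotic against water mice given morphine, on a mean of 10.4 reads per library.

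Of the RNA sensors, Ifih1 (MDA5) binds long double-stranded RNA and Ddx58 (RIG-I) RNA with a triphosphate end, while Eif2ak2 (PKR) halts translation. Their log2 differences over the 4 pairs ran from -0.20 ± 0.169 to 0.34 ± 0.165, both for Ifih1. Adar averaged 312 ± 16.1 CPM in antibiotic morphine libraries, 330 ± 15.9 CPM in water morphine libraries, 312 ± 8.16 CPM in antibiotic saline libraries and 309 ± 4.87 CPM in water saline libraries. Given morphine, single libraries had 293, 314, 326, 330 and 299 CPM with antibiotics and 353, 335, 313, 318 and 329 CPM with water, which overlapped.

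Transcripts of the interferons themselves were scarce. Of 11 ligand genes in the table, 8 had 0 reads in all 22 libraries, Ifnb1 among them, which allows up to 3 reads over all libraries together or 0.0117 CPM (counting error only). Ifna6 had 2 reads in all libraries together, Ifna2 had 1 and Ifng had 1.

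Other genes of the pathway give the setting of these changes. Of 31 tested among 44 further interferon-stimulated genes, 4 fell and 0 rose in antibiotic against water mice given morphine, 12.9% against 18.0% of all tested genes, so the share was below that of all genes. None passed in the other 3 pairs. There edgeR gave, at an unadjusted p under 0.05, 4 of the 31 with morphine in antibiotic mice, 5 in antibiotic against water mice given saline and 1 with morphine in water mice, against 27.6%, 17.3% and 22.7% of all tested genes. Uba7, the enzyme that activates Isg15 for conjugation, averaged 2.01 ± 0.458 CPM in antibiotic morphine libraries and 3.56 ± 0.623 CPM in water morphine libraries (log2 change -0.82 ± 0.193, adjusted p = 0.00439). Gbp5, a further guanylate-binding protein, averaged 2.18 ± 0.637 CPM in antibiotic and 3.64 ± 0.903 CPM in water libraries given morphine (log2 change -0.74 ± 0.192, adjusted p = 0.00885). Sp100, a component of nuclear bodies, averaged 2.10 ± 0.485 CPM in antibiotic and 3.47 ± 0.476 CPM in water libraries (log2 change -0.72 ± 0.207, adjusted p = 0.0184). The remaining gene, Ifit3b, listed under an older symbol and named after its values were seen, had a log2 change of -0.43 ± 0.137 (adjusted p = 0.033).

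Among 23 genes of interferon signalling and induction, 2 rose and 2 fell in antibiotic against water mice given morphine, 17.4% against 18.0% of all tested genes and thus close to the background. Irf3, the factor that first induces interferon beta, averaged 12.7 ± 2.18 CPM in antibiotic and 16.0 ± 0.814 CPM in water libraries given morphine (log2 change -0.34 ± 0.108, adjusted p = 0.032). Tbk1, the kinase that activates Irf3, averaged 60.1 ± 3.93 CPM in antibiotic and 51.0 ± 2.72 CPM in water libraries (log2 change 0.24 ± 0.0551, adjusted p = 0.00387). Tlr7, an endosomal receptor for single-stranded RNA, averaged 3.61 ± 0.543 CPM in antibiotic and 2.29 ± 0.503 CPM in water libraries (log2 change 0.66 ± 0.170, adjusted p = 0.00828). Morphine against saline in antibiotic mice gave 1 higher gene, Tbk1 (log2 change 0.23), and 2 lower genes, Irf3 among them (-0.45), which is 13% of the list and 13% of all tested genes.

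Of 14 tested genes among 20 further class I chains and loading factors, 4 fell and 0 rose in antibiotic against water mice given morphine, 28.6% against 18.0% of all tested genes. Calr, the chaperone calreticulin of the loading complex, averaged 278 ± 15.3 CPM in antibiotic morphine libraries and 360 ± 13.9 CPM in water morphine libraries (log2 change -0.37 ± 0.0538, adjusted p = 5.48e-05). Pdia3, the disulfide isomerase paired with tapasin, had a log2 change of -0.22 ± 0.0510, the proteasome activator Psme2 -0.22 ± 0.0626 and the tapasin-related Tapbpl -0.31 ± 0.0998. In antibiotic mice given morphine against those given saline, Calr (-0.34) and Tapbpl (-0.37) fell and H2-T10, a class I-like chain, rose (0.65), 21.4% of the 14 against 13% of all tested genes. Calr and Pdia3 also fold many other proteins. Of 7 MHC class II genes, none passed in any comparison. At an unadjusted p under 0.05 edgeR gave 1 higher in antibiotic against water mice given morphine (31.3% of all tested genes), 3 lower with morphine in antibiotic mice (27.6%), 0 in antibiotic against water mice given saline (17.3%) and 1 lower with morphine in water mice (22.7%).

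Levels of other cell types' markers differed between the same groups. The summed level of 18 microglia markers was 562 to 666 CPM in antibiotic morphine libraries, 727 to 819 CPM in water morphine libraries, 678 to 818 CPM in antibiotic saline libraries and 842 to 906 CPM in water saline libraries. In antibiotic against water mice given morphine 13 of the 18 fell and 0 rose (72.2%, against 18.0% of all tested genes; median log2 change -0.36), with Olfml3, Fcrls and P2ry13 at -1.45, -1.18 and -0.82. Morphine against saline in antibiotic mice gave 13 lower (72.2% against 13%, median -0.31). Antibiotics against water under saline gave 8 lower (44.4% against 1.41%, median -0.25), and morphine against saline in water mice 4 lower and 1 higher (27.8% against 6.58%, median -0.22). Of 16 endothelial markers, 6 fell and 1 rose in antibiotic against water mice given morphine (43.8%), 4 fell with morphine in antibiotic mice (25%), 2 fell in antibiotic against water mice given saline (12.5%) and 4 fell with morphine in water mice (25%), against the same shares of all genes. Of 10 oligodendrocyte markers, 3 fell in antibiotic against water mice given morphine (30%), 1 fell and 3 rose with morphine in antibiotic mice (40%), 7 fell in antibiotic against water mice given saline (70%) and 3 fell with morphine in water mice (30%). Of 10 astrocyte markers, 3 fell and 1 rose in antibiotic against water mice given morphine (40%), 1 fell with morphine in antibiotic mice (10%), and 0 passed in the other pairs, where edgeR gave 4 with antibiotics under saline and 2 with morphine in water mice at an unadjusted p under 0.05. Of 8 pericyte and smooth muscle markers, 1 fell in each pair except antibiotics against water under saline, where 0 passed (2 at an unadjusted p under 0.05). None of 12 markers of striatal projection neurons passed in any pair. At an unadjusted p under 0.05 edgeR gave 1 lower in each pair except morphine against saline in antibiotic mice, where it gave 0. Such a p was found for 31.3% of all tested genes with antibiotics under morphine and 17.3% with antibiotics under saline. With morphine it was 27.6% in antibiotic mice and 22.7% in water mice. Of 11 border macrophage and monocyte markers 4 were abundant enough to test and none passed, of the lymphocyte markers only Cd4 was, and none of the 7 neutrophil markers was. Of 5 erythrocyte markers, the 4 haemoglobin genes were at 0 in every library and only Alas2 was tested. Alas2 fell with morphine in water mice (log2 change -1.05), where 6.58% of all tested genes passed. Its log2 differences were -0.94 with morphine in antibiotic mice, -0.74 with antibiotics under saline and -0.63 with antibiotics under morphine. These did not pass.

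With the microglia score of each library, the mean centred log2 CPM of the 18 markers, as a covariate beside group, none of the 39 genes passed in any comparison. Gbp3 then had a log2 change of -0.95 ± 0.298 (adjusted p = 0.167) in antibiotic against water mice given morphine, Gbp2 -1.03 ± 0.421 and Isg15 -0.86 ± 0.466. The standard errors of Gbp3, Gbp2 and Isg15 were 1.82, 1.85 and 1.81 times those without the covariate. The call count over all genes fell to 11 in that fit, against 2621 without the covariate. With the slope on transcript length as covariate instead, 5 of the 6 calls in this comparison held (all but Ifi27, adjusted p = 0.0539). In morphine against saline in antibiotic mice, the log2 difference of Gbp3 was then -0.62 ± 0.218 and that of Psmb8 -0.32 ± 0.239.

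**Figure D4:**
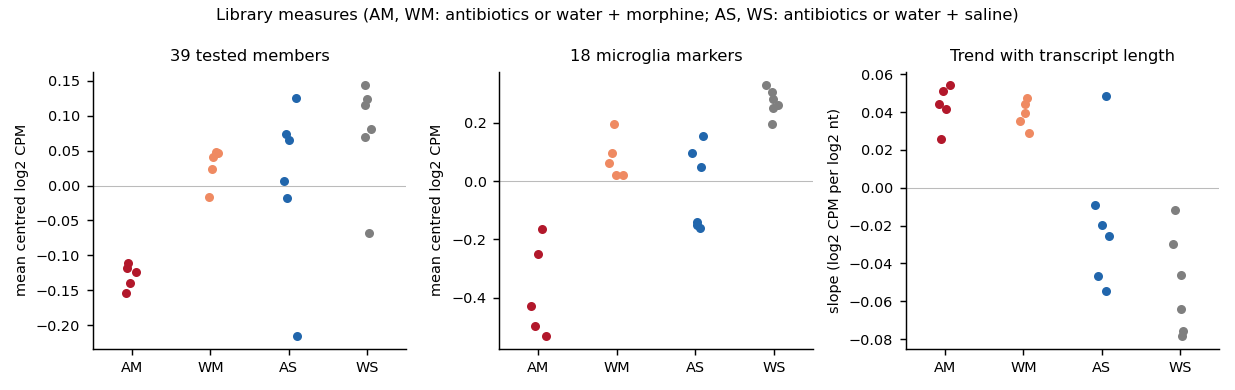
Each point is a library (AM and AS antibiotics with morphine and with saline, WM and WS water with morphine and with saline): left, the mean centred log2 CPM of the 39 tested genes; middle, that of 18 microglia markers; right, the slope of centred log2 CPM on log2 transcript length. The antibiotic morphine libraries lie between -0.154 and -0.111 on the left and are the lowest 5 in the middle, and antibiotic saline library 6 stands with the morphine libraries on the right at 0.0483.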

How the data were processed

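RNA of mouse nucleus accumbens was extracted with TRIzol and copied to cDNA with the SMARTer kit, per the labels' protocols. Reads were aligned with STAR 2.4.0, and FastQC and edgeR were used, per the submitters' processing notes. The authors deposited raw read counts per gene, which were used throughout; their normalised table was not used here. Genome build, annotation and strandedness: not given in the sources used here. The 5 summary entries, holding 20.6% to 26.4% of a library's counts, were removed.

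All 22 libraries entered a single model of 4 groups in edgeR 4.0.16 (R 4.3.3): filterByExpr by group, TMM scaling and a robust quasi-likelihood F-test, two-sided, with Benjamini-Hochberg adjustment over 14564 genes. CPM uses gene counts and TMM factors, log2 CPM a prior count of 2, and an SE is the log2 change divided by the square root of F. Alternatives used RLE scaling, no filter, DESeq2 1.42.0, limma-voom 3.58.1, only the groups compared, the replicate number as block, and leaving out each library. Added after seeing the data were the transcript length slope and the microglia score as covariates, and omission of both libraries highest in Malat1. The pipeline was tested on simulated data.

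The genes and lists were chosen with earlier results of these data known. Genes past the threshold in any comparison and the most abundant gene of each role are given with their values (by library, as lowest, median and highest, or as group mean ± SD). For other lists counts are given, and only some of the genes past the threshold are named. Transcript lengths and shared 50-base windows come from GENCODE, gene order and promoters from RefSeq. The list genes Drd1 and Ifit3b were found under older symbols, and 1 was not matched. For 1 gene of the interferon signalling list, the values are not reported here. The p-values and standard errors reflect only how far these samples spread, which may be technical. The limit given for ligand genes without reads covers counting error only. Counts of the 50 pairs within groups differed by 3.17 to 23.0 times the sampling variance. Labels give no batch, so a batch that follows the groups cannot be told apart from them.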

Additional observations from a re-analysis of the deposited data

Results flagged for a closer look

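A library far from the others of its group, by Dixon's ratio of gap to range, was found in 9 of 156 gene and group combinations, and chance flags about 1 in 20 of them. Among antibiotic morphine libraries, Ifih1 stood at 3.43 CPM in library 1 against 2.14 to 2.45 CPM in the others, Ifi35, a leucine-zipper protein, at 3.17 CPM in library 5 against 2.35 to 2.56 CPM, and Xaf1, a gene linked to apoptosis, at 3.33 CPM in library 2 against 2.44 to 2.69 CPM. Among water morphine libraries, Eif2ak2 stood at 7.68 CPM in library 2 against 6.12 to 6.45 CPM, Ifit3 at 12.6 CPM in library 6 against 7.33 to 8.44 CPM, and Ifi27 at 26.4 CPM in library 4 against 19.1 to 20.6 CPM. Among antibiotic saline libraries, Ifnar2 stood low at 17.3 CPM in library 5 against 19.7 to 21.1 CPM, and Tap2 low at 7.39 CPM in library 6 against 9.35 to 10.5 CPM. Among water saline libraries, Tapbp stood at 48.6 CPM in library 4 against 37.6 to 40.6 CPM.

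Of these, Ifi27 was called in a comparison that includes its high library. Without water morphine library 4 the log2 change of Ifi27 in antibiotic against water mice given morphine was -0.23, and the call was lost. This loss is not particular to library 4, since the call ended without any of 8 of the 10 libraries.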

How the results depend on the processing

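The log2 changes of Gbp3 in both comparisons with calls, and of Gbp2 and Isg15 in antibiotic against water mice given morphine, kept direction and threshold under RLE scaling, no filter, DESeq2, limma-voom, a fit of the groups compared and the replicate block, and with any library left out. No alternative reversed a named gene. In the main fit of that comparison 15.4% of the list passed, below the 18.0% of all tested genes. There 4 to 6 genes of the list passed under those 6 settings, 3 to 5 with a library left out and 0 with the microglia score. For morphine against saline in antibiotic mice 2 passed with only the groups compared in the fit, 3 to 4 with a library left out, and 0 with the length slope or the microglia score. For antibiotics against water under saline 0 to 1 passed with a library left out, and 0 to 0 for morphine in water mice and for the difference. The promoter count was 11 with the longer motif and 15 with its core. Ifi27 missed the threshold in the first comparison with RLE scaling (adjusted p = 0.0503), as did Psmb8 in the second with only the groups compared (adjusted p = 0.0517). Isg15 also missed it in the second with only the groups compared. In the first comparison Ifi27 was also lost with only the groups compared. Both Ifi27 and H2-T23 were lost there with the replicate block and without the 2 libraries highest in Malat1. The cause was not tested.

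Counts over all genes moved as follows. Antibiotics against water under saline gave 417 with DESeq2, 67 with only the groups compared, 46 with the length slope, 0 with the microglia score and 70 without the 2 libraries highest in Malat1, against 205, and 48 to 409 with a library left out. Antibiotics against water under morphine gave 11 with the microglia score, against 2621, and 1877 to 2748 with a library left out. Morphine against saline in antibiotic mice gave 1187 with only the groups compared, 138 with the length slope and 9 with the microglia score, against 1900, and 1084 to 2048 with a library left out. Morphine against saline in water mice gave 0 with the length slope and 29 with the microglia score, against 959, and 509 to 880 with a library left out. The difference gave 185 with DESeq2 and 40 with the microglia score, against 68, and 28 to 100 with a library left out.

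The deviations of same-numbered libraries had a correlation over 0.1 in 1 of 4 pairs for morphine in water mice and 1 of 5 for morphine in antibiotic mice. For antibiotics under saline and under morphine it was 2 of 4 each. In the same order, the median was -0.02, 0.04, 0.13 and 0.04, against -0.01, -0.03, -0.01 and -0.04 for libraries with different numbers. So few pairs do not show whether the numbers pair the libraries. With the replicate block, 281 genes passed for morphine in water mice, 105 for antibiotics under saline and 10 for the difference. In antibiotic against water mice given morphine 4 genes of the list passed with the block. The main fit of that comparison gave 15.4% of the list, below the 18.0% of all tested genes.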
